A study of Mus musculus with 9 samples.

Results

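The genes described here encode the contractile apparatus of smooth muscle: the actins Acta2 and Actg2, the myosin subunits Myh11 and Myl9, the myosin light chain kinase Mylk, the tropomyosins Tpm1 and Tpm2, and the actin-binding proteins Tagln, Cnn1 and Smtn. They were taken by gene name from the deposited count table and are 10 of its 27370 genes. All 10 had counts in at least 1 group and all 10 passed the low-count filter, although Cnn1 was near the detection limit in several libraries and Actg2 had 0 counts in every lymph node library. PolyA RNA was measured in 9 libraries of sorted fibroblasts from Wt1CreERT2 RosatdTomato CD64DTR mice aged 4 months, in 3 groups of 3. Depleted RPF were red pulp fibroblasts of the spleen, sorted as tdTomato+ cells, from mice given diphtheria toxin. Steady-state RPF were the same tdTomato+ spleen cells from untreated mice. FRC were fibroblastic reticular cells, sorted as tdTomato- cells from lymph nodes of untreated mice.

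All 3 groups carried every allele: a Wt1-driven, drug-inducible Cre with its tdTomato reporter, and the toxin receptor under control of CD64, a macrophage Fc receptor. The toxin kills cells that bear this receptor. The untreated mice received no toxin, so an effect of the toxin itself and of the loss of macrophages cannot be told apart. Each library pooled 2 mice, each group came from 6 mice and 45000 sorted cells, and the p-values below measure the spread between libraries. FRC and steady-state RPF came from the same 6 untreated mice, and the test treats their libraries as independent.

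Smooth muscle contracts when myosin filaments pull on actin filaments. Calcium-calmodulin activates myosin light chain kinase, which phosphorylates the regulatory light chain, and tropomyosin, calponin and caldesmon on the actin filament modulate the force. Reticular fibroblasts of lymphoid organs share part of this machinery, and in lymph nodes it is known to set the tension of the reticular network. Many of its genes are driven by serum response factor (SRF), which binds a sequence called the CArG box and works with the coactivators myocardin and the myocardin-related transcription factors.

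Promoters were available from RefSeq (GRCm38.p6) for 7 of the 10 genes, each as a window of 300 bases, 250 before and 50 after the annotated start. A CArG box was searched as CC, then 6 bases that are all A or T, then GG. This pattern is its own reverse complement, so that 1 scan covers both strands. It was found in 1 of the 7 windows (Myl9), and allowing 1 G or C among the 6 middle bases it was found in 2 (Acta2 and Myl9). Among all 32851 promoters of this length, 1.63% held the exact form and 9.98% the form with 1 G or C. The 2 promoters with a box are shown with the boxes in capitals, in the direction of transcription. Both genes rose after depletion. Among the genes whose windows held no box in either form, Tpm1 and Tpm2 rose, and Cnn1, Mylk and Smtn did not pass the test. The boxes of Acta2 begin at positions -84 and -34 and those of Myl9 at -161 and -99, where -1 is the base before the start. For both genes this start is not the end of the gene coordinates given below, so distances from other annotated starts differ. Only the first box of Myl9 has no G or C in the middle. A match describes the letters and is not evidence of binding.
Acta2 promoter, chr19:34255324-34255623, minus strand: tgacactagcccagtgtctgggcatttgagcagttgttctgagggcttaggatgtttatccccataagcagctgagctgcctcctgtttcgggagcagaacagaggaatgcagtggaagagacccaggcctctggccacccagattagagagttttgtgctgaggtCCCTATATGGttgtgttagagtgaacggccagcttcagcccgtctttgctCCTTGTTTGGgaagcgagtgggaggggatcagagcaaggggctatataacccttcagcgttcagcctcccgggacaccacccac
Myl9 promoter, chr2:156775214-156775513, plus strand: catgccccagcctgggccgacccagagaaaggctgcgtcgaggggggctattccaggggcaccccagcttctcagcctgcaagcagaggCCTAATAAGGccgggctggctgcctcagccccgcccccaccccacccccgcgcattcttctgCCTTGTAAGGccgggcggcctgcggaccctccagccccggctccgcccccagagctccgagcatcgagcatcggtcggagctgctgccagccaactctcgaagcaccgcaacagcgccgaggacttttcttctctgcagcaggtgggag

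Total counts per library ran from 25414645 to 43879806. Levels are CPM, counts scaled to a common library total, after TMM scaling, which corrects for differences in RNA composition, and are given as mean ± SD over 3 libraries. The 10 genes together took 0.612%, 0.924% and 0.847% of all counts in depleted RPF, 0.274%, 0.196% and 0.285% in steady-state RPF and 0.110%, 0.213% and 0.0864% in FRC. All 5 RPF identity genes were higher in each RPF group than in FRC, and Pdpn, which encodes gp38, exceeded 1 CPM in FRC only. Wt1 is among the 5 and drives the Cre behind the tdTomato sort, so its direction follows in part from the sort. Pdpn was listed among FRC sort and identity genes, so its direction may follow from the sort too. The RPF identity genes summed to 595.3 to 737.3 CPM in depleted RPF, 1350 to 1532 CPM in steady-state RPF and 82.3 to 86.6 CPM in FRC. In depleted against steady-state RPF 2 of the 5 fell, and they were the transcription factor genes Tcf21 (213 ± 52.1 CPM in depleted and 715.5 ± 85.3 CPM in steady-state RPF, edgeR adjusted p = 0.00363) and Nr2f2 (147.2 ± 3.36 CPM in depleted and 188.3 ± 12.1 CPM in steady-state RPF, edgeR adjusted p = 0.0408). Wt1, the lineage marker, averaged 34.4 CPM in depleted and 62.1 CPM in steady-state RPF and did not pass. Markers of red pulp macrophages summed to between 1.41 and 15.3 CPM in depleted RPF and between 205.1 and 225.3 CPM in steady-state RPF. The Y chromosome genes Ddx3y, Eif2s3y, Kdm5d and Uty together had 3650 to 4513 counts in the depleted libraries, 1, 6101 and 2285 in steady-state RPF replicates 1, 2 and 3 and 0, 3781 and 3447 in FRC replicates 1, 2 and 3. The sex of the mice thus differed between libraries and was not balanced between the groups. An alternative fit held a yes-or-no term for Y-linked reads, which set only steady-state RPF replicate 1 and FRC replicate 1 apart. It did not adjust for the amount of Y-linked reads in the other libraries. In bulk RNA, a change in the share of cells that express a gene and a change in RNA per cell cannot be told apart.

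**Figure D1:**
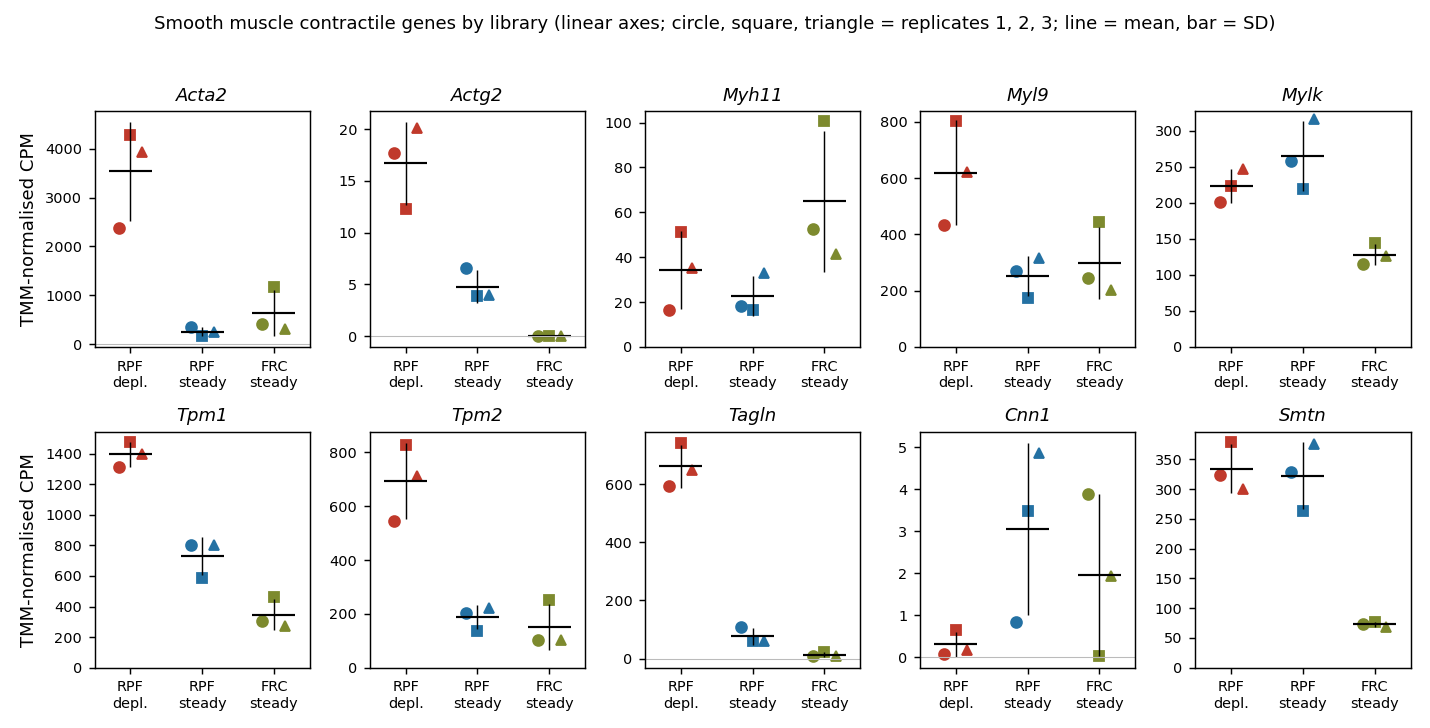
TMM-normalised CPM of each of the 10 genes in each library (linear axes, 1 panel per gene), with depleted RPF, steady-state RPF and FRC from left to right. Symbols are libraries, horizontal lines are means and vertical bars are SD. The 3 depleted libraries lie above all steady-state RPF libraries for Acta2, Actg2, Myl9, Tpm1, Tpm2 and Tagln, and below them for Cnn1.

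The comparison of depleted with steady-state RPF asks what happens to these genes in red pulp fibroblasts once macrophages are lost. Of the 10 genes, 6 rose and 0 fell, against a background in which 21.0% of the 15103 tested genes were called at an edgeR adjusted p under 0.05, 11.1% higher and 9.96% lower. Their median log2 fold change was 1.11, against -0.09 over all tested genes. The 6 were both actins, both tropomyosins, the regulatory light chain and Tagln. The myosin heavy chain, the light chain kinase and the filament proteins Cnn1 and Smtn did not pass. The libraries of both groups did not overlap, with depleted RPF higher, for 6 members and for 21.4% of all tested genes. With library totals as the only scale, the numbers of genes called higher and lower were 1297 and 1864, in place of 1671 and 1505, and 5 of these 6 members passed, Actg2 being the exception (edgeR adjusted p = 0.0525).

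Acta2 (ENSMUSG00000035783, mm10 chromosome 19, 34241090 to 34255336, minus strand) encodes smooth muscle alpha-actin, the main actin of the contractile filament. It had 2386, 4280 and 3940 CPM in depleted RPF, against 339.7, 169.5 and 256.8 CPM in steady-state RPF. The lowest depleted library lay far above the highest steady-state library. The difference was 13.8-fold, or a log2 fold change of 3.79 with an SE of 0.54 (edgeR adjusted p = 0.00128), the largest of the 10 genes. The call held in 19 of 19 alternative analyses, with log2 fold changes of 3.57 to 4.05.

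Actg2 (ENSMUSG00000059430, chromosome 6, 83512905 to 83536265, minus strand) encodes the gamma-actin of enteric smooth muscle. Its level was low, with 17.7, 12.3 and 20.1 CPM in depleted RPF, against 6.60, 3.87 and 3.94 CPM in steady-state RPF. The groups did not overlap, and the difference was 3.47-fold (edgeR adjusted p = 0.0425). This call rested on all 6 libraries: it was lost when any of them was left out, at adjusted p values of 0.0695 to 0.16, and also with a term for Y-linked reads (adjusted p = 0.0601) and without the low-count filter (adjusted p = 0.103).

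Tagln (ENSMUSG00000032085, chromosome 9, 45929619 to 45936058, minus strand) encodes transgelin, which cross-links actin filaments and is an early marker of smooth muscle differentiation. It had 594, 741.5 and 649.3 CPM in depleted RPF, against 108.5, 61.3 and 59.2 CPM in steady-state RPF. All depleted libraries were above all steady-state libraries, 8.66-fold on average (log2 3.12, SE 0.42, edgeR adjusted p = 0.000918). Pcsk7 overlaps Tagln by 108 bases on the other strand and Gm48529 lies antisense to it, and how the counting treated the strand is not known from the sources used here. Pcsk7 had 2224 to 4279 counts per library in depleted RPF and 1063 to 2823 in steady-state RPF, and Gm48529 at most 89. These counts do not bound how many shared reads Tagln could have gained or lost.

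Both tropomyosin genes, whose products lie along the actin filament and control access of myosin, rose. Tpm2 (ENSMUSG00000028464, chromosome 4, 43514711 to 43523765, minus strand) had 545.1, 825.9 and 712.2 CPM in depleted RPF, against 202.6, 136.6 and 223.4 CPM in steady-state RPF. This was a 3.70-fold difference without overlap (edgeR adjusted p = 0.00677). Tpm1 (ENSMUSG00000032366, chromosome 9, 67022590 to 67049406, minus strand) had 1313, 1477 and 1397 CPM in depleted RPF, against 800.1, 589.6 and 805.6 CPM in steady-state RPF. Its 1.91-fold difference (edgeR adjusted p = 0.0121) was the smallest of the 6. The counts pool all isoforms of a gene, of which 21 transcripts are annotated for Tpm1 and 6 for Tpm2, so muscle and non-muscle isoforms could not be separated.

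Among the myosin genes only the light chain passed. Myl9 (ENSMUSG00000067818, chromosome 2, 156775420 to 156781658, plus strand) encodes the regulatory light chain whose phosphorylation starts contraction. It had 433.5, 804.1 and 620.9 CPM in depleted RPF, against 269.1, 174.1 and 314.6 CPM in steady-state RPF. The groups did not overlap, and the difference was 2.45-fold (edgeR adjusted p = 0.0288). The call was lost without depleted replicate 2 (adjusted p = 0.0977) or 3 (0.0681), without steady-state replicate 1 (0.0741) or 2 (0.103), and with a term for Y-linked reads (0.068).

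Myh11 (ENSMUSG00000018830, chromosome 16, 14194535 to 14291372, minus strand) encodes the smooth muscle myosin heavy chain, a marker of fully differentiated smooth muscle. Its level was low, at 16.3, 51.4 and 35.0 CPM in depleted RPF, against 18.5, 16.6 and 33.1 CPM in steady-state RPF. The groups overlapped, with the lowest of the 6 values in depleted replicate 1 and the highest in depleted replicate 2 (log2 0.59, edgeR adjusted p = 0.455). Mylk (ENSMUSG00000022836, chromosome 16, 34745210 to 35002420, plus strand), the light chain kinase, had 200.5, 222.6 and 246.5 CPM in depleted RPF, against 258.1, 219.2 and 316.3 CPM in steady-state RPF. These also overlapped (log2 -0.24, edgeR adjusted p = 0.334).

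Smtn (ENSMUSG00000020439, chromosome 11, 3517523 to 3540612, minus strand) encodes smoothelin, an actin-binding protein of contractile smooth muscle. It had 323.6, 379.6 and 299.3 CPM in depleted RPF, against 329.2, 262.6 and 375.8 CPM in steady-state RPF. The groups overlapped almost fully, and the fold change of 0.05 on the log2 scale (edgeR adjusted p = 0.868) had the opposite sign with library totals (-0.12) or the upper quartile (-0.05) as the scale. Cnn1 (ENSMUSG00000001349, chromosome 9, 22099216 to 22109630, plus strand) encodes calponin, which inhibits the myosin ATPase on actin. Its values were lower in the depleted libraries, at 0.0862, 0.648 and 0.178 CPM in depleted RPF, against 0.83, 3.48 and 4.86 CPM in steady-state RPF. These are 3, 24 and 8 counts against 39, 176 and 147 counts. The groups did not overlap, as for 23.0% of all tested genes in this direction, but the spread was wide and the difference did not pass (log2 -3.31, SE 1.55, edgeR adjusted p = 0.174).

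**Figure D2:**
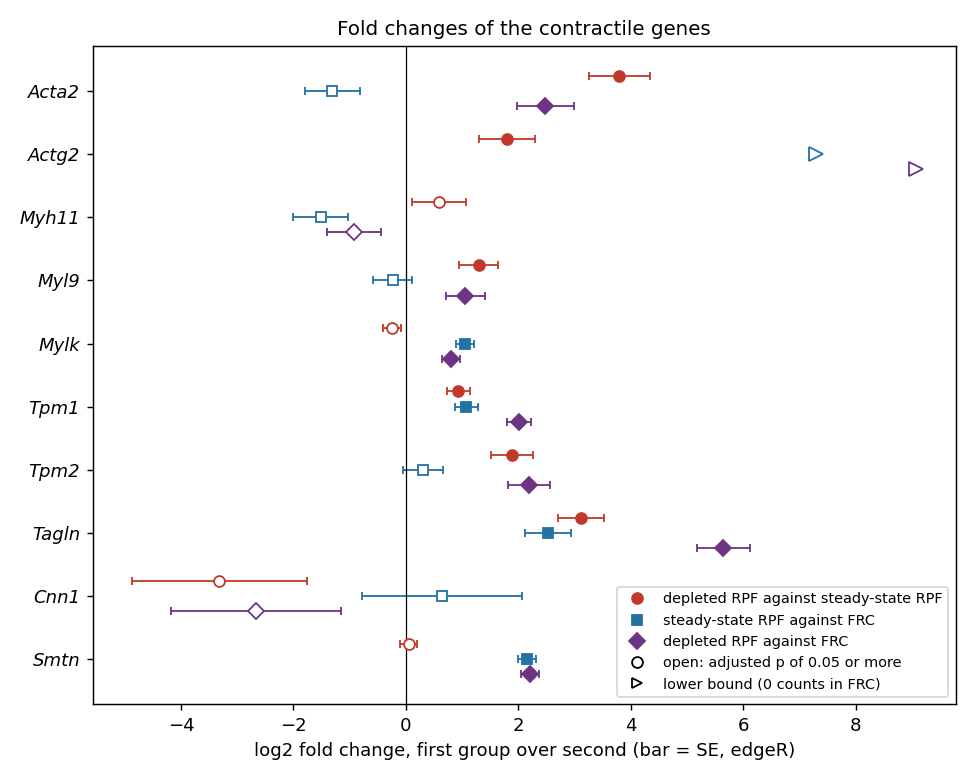
Log2 fold changes of the 10 genes in the 3 comparisons (horizontal axis, first group over second; bars are SE from edgeR). Filled symbols had an edgeR adjusted p under 0.05 and open triangles are lower bounds, since Actg2 had 0 counts in FRC. Acta2 is at 3.79 in depleted against steady-state RPF and at -1.31 in steady-state RPF against FRC, while Smtn is at 0.05 and 2.15.

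Within each RPF group 1 library was lowest for most of the genes. Depleted replicate 1 was the lowest of its group for 8 of the 10 genes and depleted replicate 2 the highest for 8, which was the case for 31.5% and 31.3% of all tested genes. Steady-state RPF replicate 2 was the lowest of its group for 8 of 10 genes (31.7% of all tested genes). Acta2, Tagln, Tpm1 and Tpm2 passed the test in 19 of 19 alternatives, those that left out each of these libraries included.

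Setting contractile genes against the counts of their gene family in the same library gives a measure that does not depend on the scaling between libraries. Acta2 made up 38.9%, 52.6% and 49.98% of the counts of 6 actin genes in depleted RPF, against 20.8%, 13.2% and 19.5% in steady-state RPF. These actin genes include Actg2 and the striated muscle genes Acta1 and Actc1, but Acta2 and Actb held nearly all of the counts. Tagln made up 33.4%, 39.0% and 35.6% of Tagln plus Tagln2 in depleted RPF, against 24.1%, 14.8% and 13.9% in steady-state RPF. For both genes every depleted library was above every steady-state library, although their non-muscle relatives Actb and Tagln2 rose as well. The shares in the other families did not rise in this way. Myh11 held 2.10% ± 1.02 of 4 myosin heavy chain genes in depleted RPF and 2.2% ± 0.335 in steady-state RPF. Tpm1 and Tpm2 together held 43.7% ± 2.21 of 4 tropomyosin genes in depleted RPF and 54.6% ± 3.47 in steady-state RPF, a lower share in each depleted library. Tpm2 alone had the higher mean share in depleted RPF, at 12.1% to 16.3%, against 9.60% to 12.6% in steady-state RPF, with overlap. Tpm4, a non-muscle tropomyosin, rose 3.64-fold in the same comparison (edgeR adjusted p = 0.000158). Myl9 held 38.7% ± 5.68 of 3 regulatory light chain genes in depleted RPF and 31.2% ± 5.41 in steady-state RPF, with overlap. Cnn1 held 0.0228% ± 0.0211 of 3 calponin genes in depleted RPF and 0.512% ± 0.355 in steady-state RPF. These shares restate the levels above and were not tested, and Actg1, Tpm3, Tpm4, Myl12a and Myl12b share 11.7% to 37.4% of their 50-base stretches with other transcripts, so their counts are uncertain. Of the 10 contractile genes themselves, none shared more than 0.34%.

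**Figure D3:**
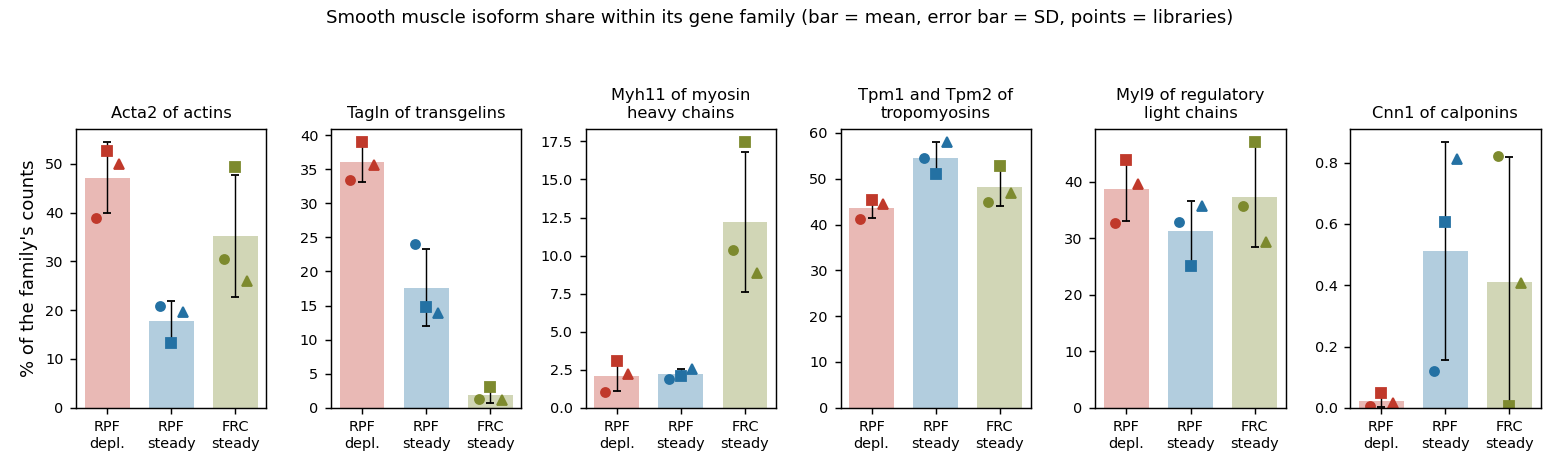
Share of a gene family's counts held by Acta2, Tagln, Myh11, Tpm1 plus Tpm2, Myl9 or Cnn1, in percent. Symbols are libraries, with the mean (bar) and SD (error bar) of depleted RPF, steady-state RPF and FRC from left to right. The Acta2 share averages 47.2%, 17.8% and 35.2% in these groups, the Tagln share 36.0%, 17.6% and 1.84%, and the Myh11 share 2.10%, 2.2% and 12.2%.

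Per kilobase of median transcript length, which allows levels of different genes to be compared, Acta2 was the most abundant of the 10 in depleted RPF at 1985 ± 567 CPM per kb. It was followed there by Myl9 (1232 ± 368), Tpm1 (984 ± 57.8), Tagln (709 ± 79.9) and Tpm2 (513 ± 104). In steady-state RPF the order began with Tpm1 (516 ± 86.8) and Myl9 (502 ± 142), which did not differ beyond their spread, then Mylk (218 ± 40.4), and Acta2 (143 ± 47.8), Tpm2 (138 ± 33.5) and Smtn (135 ± 23.9) lay together. In FRC, Myl9 (591 ± 256) and Acta2 (355 ± 265) led with wide spreads. The order depends on the length used: with the longest transcript, Mylk stood at rank 7 in steady-state RPF and Acta2 led in FRC. Acta2 took 40.9%, 48.7% and 49.7% of the counts of all 10 genes in depleted RPF, against 14.6%, 10.3% and 10.7% in steady-state RPF. The part taken by Smtn was 5.55%, 4.32% and 3.78% in depleted RPF, against 14.1%, 16.0% and 15.7% in steady-state RPF.

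Steady-state RPF were compared with FRC to ask how the contractile genes differ between fibroblasts of the spleen and of lymph nodes. Of the 10 genes, 5 were higher in steady-state RPF and 0 lower, where 25.9% of all tested genes were called, 11.5% higher and 14.4% lower. The 5 were Smtn, Mylk, Tpm1, Tagln and Actg2, and each passed in 19 of 19 alternatives. Myl9, Tpm2 and Cnn1 lay within the spread. Acta2 and Myh11 had lower means in steady-state RPF and did not pass. With library totals as the only scale, 3935 genes were called higher and 1342 lower, in place of 1734 and 2174 (2158 and 1821 with upper quartile scaling), and the 5 members stayed called. For the same 5 genes all steady-state RPF libraries lay above all FRC libraries, as for 21.5% of all tested genes.

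Smtn had the smallest p of the 10, with 329.2, 262.6 and 375.8 CPM in steady-state RPF, against 72.7, 77.1 and 68.1 CPM in FRC. The difference was 4.44-fold (log2 2.15, SE 0.16, edgeR adjusted p = 1.69e-05). Mylk had 258.1, 219.2 and 316.3 CPM in steady-state RPF, against 115.6, 143.4 and 125.4 CPM in FRC. It was 2.06-fold higher without overlap (edgeR adjusted p = 0.00138). Gm11946 and Gm11947 lie opposite Smtn, and 3 antisense RNAs lie opposite Mylk. If the strand was not used, shared reads could be added to or lost from Smtn and Mylk, depending on how they were assigned. Those of the 4 with rows of their own had at most 169 counts in any library, which does not bound that effect.

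Tagln had 108.5, 61.3 and 59.2 CPM in steady-state RPF, against 9.38, 22.4 and 7.90 CPM in FRC, a 5.78-fold difference (edgeR adjusted p = 0.0019) that came to 8.85-fold without FRC replicate 2. Tpm1 had 800.1, 589.6 and 805.6 CPM in steady-state RPF, against 307.9, 463.3 and 272.2 CPM in FRC, a 2.10-fold difference (edgeR adjusted p = 0.0049). Neither gene's groups overlapped. Actg2 had 625 counts over the steady-state RPF libraries and 0 in FRC, at least 156-fold higher if the FRC libraries are given 3 counts in all as a floor (edgeR adjusted p = 0.00015).

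FRC replicate 2 stood apart in these genes. It was the highest FRC library for 8 of the 9 genes detected there, and the lowest for Cnn1, at 1 count against 128 and 65, while 33.6% of all tested genes were highest in it. Acta2 had 339.7, 169.5 and 256.8 CPM in steady-state RPF, against 414.8, 1175 and 308.1 CPM in FRC. The groups overlapped, and the log2 fold change was -1.31 (SE 0.49, edgeR adjusted p = 0.084). Without FRC replicate 2 this was -0.50 (adjusted p = 0.328), and without FRC replicate 3 it was -1.63 and passed (adjusted p = 0.0393). Myh11 had 18.5, 16.6 and 33.1 CPM in steady-state RPF, against 52.7, 100.6 and 41.3 CPM in FRC. Its groups did not overlap (23.1% of all tested genes in this direction), and its log2 fold change of -1.51 was at the threshold (edgeR adjusted p = 0.0507). It passed in 9 of 19 alternatives, with adjusted p values of 0.00978 to 0.17, and had a log2 fold change of -1.05 without FRC replicate 2 (adjusted p = 0.163).

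The remaining 3 genes overlapped between steady-state RPF and FRC. Tpm2 had 202.6, 136.6 and 223.4 CPM in steady-state RPF, against 101.8, 251.1 and 104.3 CPM in FRC (log2 0.30, edgeR adjusted p = 0.608), and passed at log2 0.87 without FRC replicate 2 (adjusted p = 0.0388). Myl9 averaged 252.6 ± 71.7 CPM in steady-state RPF and 297.2 ± 129 CPM in FRC. Its log2 fold change of -0.23 (edgeR adjusted p = 0.685) turned to 0.17 without FRC replicate 2 and to 0.34 with library totals as the scale. Cnn1 averaged 3.06 ± 2.05 CPM in steady-state RPF and 1.95 ± 1.93 CPM in FRC (edgeR adjusted p = 0.797).

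Markers of pericytes, the contractile cells around small vessels, also differed between steady-state RPF and FRC. The 8 markers summed to 549.6, 692.5 and 588.3 CPM in steady-state RPF, against 1837, 2660 and 2269 CPM in FRC. The highest sum was in FRC replicate 2, and Abcc9 held most of each FRC sum. Of the 7 tested, 3 were lower in steady-state RPF (Rgs5, Abcc9 and Cspg4) and 2 higher (Kcnj8 and Ndufa4l2). Over all tested genes 14.4% were lower and 11.5% higher. Rgs5, a defining marker, was at 0.138 ± 0.0664 CPM in steady-state RPF, against 326.8, 268.8 and 374.2 CPM in FRC replicates 1, 2 and 3, lowest in replicate 2. Abcc9, a potassium channel subunit of pericytes, was at 29.2 ± 4.19 CPM in steady-state RPF, against 1223, 1957 and 1558 CPM in the same FRC libraries, and Cspg4, the proteoglycan NG2, at 0.452 ± 0.716 CPM in steady-state RPF, against 9.62, 38.4 and 16.6 CPM there. These 2 were thus highest in FRC replicate 2, as were Kcnj8 (139.9, 249.3 and 147.8 CPM) and Mcam (6.04, 14.1 and 6.20 CPM). Ndufa4l2 was highest there by little, at 1.06, 1.09 and 0.775 CPM. Notch3, a receptor of mural cells, was not highest there, at 130.6, 132.1 and 164.8 CPM. Neither was Higd1b, at 0, 0 and 0.656 CPM. Kcnj8, the channel pore that pairs with Abcc9, averaged 435.4 ± 79.0 CPM in steady-state RPF and 179 ± 61.0 CPM in FRC, and Ndufa4l2 24.8 ± 8.8 CPM in steady-state RPF and 0.977 ± 0.175 CPM in FRC. The part of such cells in the FRC values of Acta2 and Myh11 was not tested.

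Depleted RPF were also set against FRC, a comparison that shares its libraries with both others. Of the 10 genes, 8 were higher in depleted RPF and 0 lower, where 35.8% of all tested genes were called, 16.9% higher and 18.8% lower. Tagln differed most among genes detected in both, at 661.6 ± 74.5 CPM in depleted RPF and 13.2 ± 7.97 CPM in FRC, 50.1-fold (edgeR adjusted p = 2.91e-05), and 76.5-fold without FRC replicate 2. Actg2 was at least 539.5-fold higher on the same floor (edgeR adjusted p = 6.08e-05). Acta2 was 5.59-fold higher (edgeR adjusted p = 0.00515), and 9.78-fold without FRC replicate 2, with every depleted library above every FRC library. Smtn, Tpm2 and Tpm1 were 4.6-fold, 4.56-fold and 4.01-fold higher, and Mylk 1.74-fold. All depleted libraries lay above all FRC libraries for 7 genes (24.5% of all tested genes), and for 0 genes they all lay below (25.8%). Myl9 was 2.08-fold higher (edgeR adjusted p = 0.0412), with 433.5 CPM in the lowest depleted library and 443.4 CPM in the highest FRC library. It passed in 11 of 19 alternatives, and among single libraries left out it lost its call without depleted replicate 2 (adjusted p = 0.13) or 3 (0.0848), steady-state RPF replicate 1 (0.0598) or 3 (0.0506), or FRC replicate 1 (0.116) or 3 (0.117). Myh11, at 34.3 ± 17.6 CPM in depleted RPF and 64.8 ± 31.5 CPM in FRC, did not pass (log2 -0.92, edgeR adjusted p = 0.172), nor did Cnn1. With library totals as the only scale, 3933 of all genes were called higher and 2125 lower, in place of 2557 and 2843.

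Over the 3 groups the levels took a few orders. Tagln, Actg2 and Tpm1 were highest in depleted RPF, then in steady-state RPF, then in FRC, and each step passed the test. The step of Actg2 between the RPF groups was less stable and passed in 10 of 19 alternatives. Smtn and Mylk were higher in both RPF groups than in FRC, and the RPF groups did not differ beyond their spread. Acta2, Tpm2 and Myl9 were highest in depleted RPF, and steady-state RPF and FRC did not pass a test of their difference. For Myl9 this was less stable. Depleted RPF passed in 14 of 19 alternatives against steady-state RPF and in 11 of 19 against FRC, where the libraries overlapped. Myh11 had its highest mean in FRC and Cnn1 in steady-state RPF, with no comparison passing for either.

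Genes from lists around the contractile apparatus were measured in the same fit. A list around SRF held Srf, its coactivators and targets, and also Tead1 and Tead3, transcription factor genes that are not SRF coactivators. It had 10 of 14 tested genes higher and 0 lower in depleted against steady-state RPF, with a median log2 fold change of 1.45. Over all tested genes 11.1% were higher and 9.96% lower. The 10 include Tead1, Ctgf and Cyr61, so this count does not measure SRF activity. Srf itself had 197.5, 189.2 and 181.8 CPM in depleted RPF, against 53.3, 28.0 and 28.1 CPM in steady-state RPF. This was a 5.20-fold difference without overlap (edgeR adjusted p = 0.000387). Actn1, an actin cross-linker, was at 662.9 ± 43.3 CPM in depleted RPF and 174.1 ± 28.4 CPM in steady-state RPF, a 3.81-fold rise (edgeR adjusted p = 5.45e-05). Flna, the filamin that ties actin to the membrane, rose 3.40-fold and Fermt2, an integrin activator, 2.13-fold, and Ctgf, a matrix-associated growth factor, 18.8-fold. The coactivator genes were measured too. Mkl1 and Mkl2, which encode the myocardin-related factors, were at 29.0 ± 4.25 and 29.7 ± 7.31 CPM in depleted RPF, against 23.8 ± 4.89 and 39.9 ± 6.61 CPM in steady-state RPF, and did not pass (edgeR adjusted p = 0.578 and 0.297). Myocd, which encodes myocardin, had 0 counts in all depleted libraries, and reached 3.97 CPM in steady-state RPF replicate 3 and 5.79 CPM in FRC replicate 3 alone. In steady-state RPF against FRC the list had 4 of 14 higher and 1 lower, beside 11.5% and 14.4% of all tested genes. Srf averaged 36.4 CPM in steady-state RPF and 58.7 CPM in FRC (edgeR adjusted p = 0.0826).

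The non-muscle counterparts of the contractile proteins also moved after depletion, with 9 of 13 tested genes higher and 1 lower (median log2 1.2). Over all tested genes 11.1% were higher and 9.96% lower. Tagln2, Actb and Tpm4 rose 3.32-fold, 3.34-fold and 3.64-fold (edgeR adjusted p = 8.68e-06, 7.61e-05 and 0.000158). Actb, the cytoplasmic beta-actin, had 3731, 3837 and 3921 CPM in depleted RPF, against 1285, 1106 and 1051 CPM in steady-state RPF. Myh9, the non-muscle myosin heavy chain, was at 1578 ± 55.0 CPM in depleted RPF and 987.7 ± 241.9 CPM in steady-state RPF, a 1.6-fold rise (edgeR adjusted p = 0.0176). The gene that fell was Myl12b, a non-muscle regulatory light chain, at 19.2 ± 7.82 CPM in depleted RPF and 138.9 ± 11.8 CPM in steady-state RPF (edgeR adjusted p = 0.00017). Its near-identical neighbour Myl12a rose 2.30-fold. In steady-state RPF against FRC this list was split, 5 higher and 5 lower, beside 11.5% and 14.4% of all tested genes. Tagln2 was at 353.1 ± 11.8 CPM in steady-state RPF and 702.5 ± 29.5 CPM in FRC, the opposite order to Tagln (edgeR adjusted p = 4e-05).

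Other smooth muscle genes went both ways after depletion, with 4 of 14 tested genes higher and 4 lower (median log2 -0.71). Over all tested genes 11.1% were higher and 9.96% lower. Cald1, which encodes caldesmon, had 1754, 1720 and 1753 CPM in depleted RPF, against 574.5, 568.7 and 599.8 CPM in steady-state RPF, a 3.00-fold difference (edgeR adjusted p = 1.26e-05). Des, the intermediate filament protein desmin, was at 1657 ± 165 CPM in depleted RPF and 770.8 ± 170.5 CPM in steady-state RPF, a 2.15-fold rise (edgeR adjusted p = 0.00185). Pdlim7, which encodes an adaptor of actin structures, rose 3.71-fold. Kcnmb1, the beta subunit of the calcium-activated potassium channel of smooth muscle, had 2.67, 5.72 and 4.55 CPM in depleted RPF and 0 counts in steady-state RPF, at least 186-fold higher (edgeR adjusted p = 0.0128). The genes that fell were Fhl1, Itga8, Synpo2 and Csrp2. Synpo2, an actin-bundling protein, had 282.6, 428.7 and 357.2 CPM in depleted RPF, against 865.5, 855.2 and 924 CPM in steady-state RPF (edgeR adjusted p = 0.00109). Itga8, an integrin subunit of smooth muscle, was at 53.4 ± 18.7 CPM in depleted RPF and 237.8 ± 16.4 CPM in steady-state RPF (edgeR adjusted p = 0.00104). In steady-state RPF against FRC 5 of 14 were higher and 3 lower, beside 11.5% and 14.4% of all tested genes. Ppp1r14a, an inhibitor of myosin phosphatase, was at 23.0 ± 5.0 CPM in steady-state RPF and 0.205 ± 0.101 CPM in FRC (edgeR adjusted p = 2.06e-05).

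Of the genes that control light chain phosphorylation, 2 of 14 rose and 1 fell in depleted against steady-state RPF, close to the share over all tested genes. Rhob and Rhoa, small GTPases, rose 2.19-fold and 1.41-fold (edgeR adjusted p = 0.00431 and 0.0085), and the calmodulin gene Calm3 fell to 160.7 ± 18.8 CPM in depleted RPF, against 271.1 ± 6.09 CPM in steady-state RPF (edgeR adjusted p = 0.00399). In steady-state RPF against FRC, 2 were higher and 3 lower, beside 11.5% and 14.4% of all tested genes. The lower ones were Rgs5, which is also in the pericyte list, Calm2 and Rhob.

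**Figure D4:**
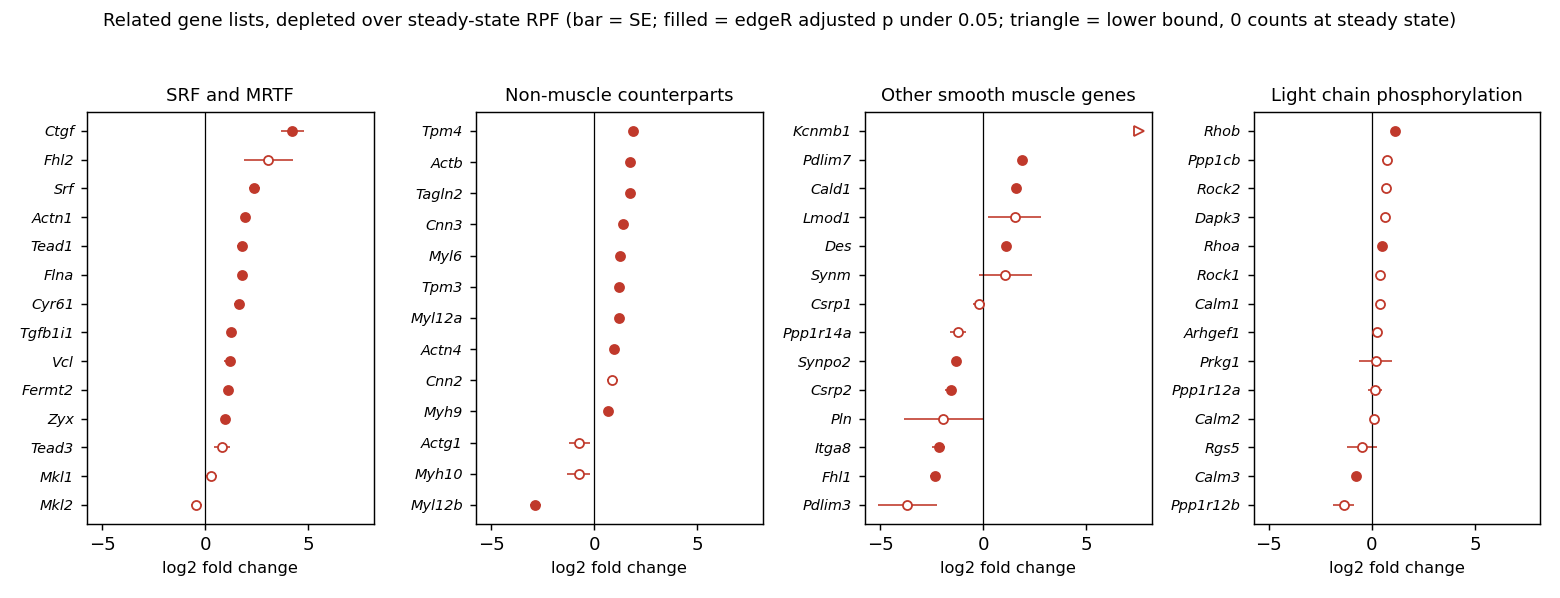
Log2 fold changes of depleted over steady-state RPF (horizontal axis, bars are SE from edgeR) for the tested genes of 4 lists. Filled circles had an edgeR adjusted p under 0.05 and the triangle is a lower bound, since Kcnmb1 had 0 counts at steady state. The lists hold 10, 9, 4 and 2 genes called higher and 0, 1, 4 and 1 called lower, beside 11.1% and 9.96% of all tested genes.

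Markers of other cells were read in the RPF libraries as well, where 11.1% of all tested genes were called higher after depletion and 9.96% lower. Of 7 tested pericyte markers, 2 rose after depletion (Mcam 13.4-fold, Notch3 1.84-fold) and 3 fell (Kcnj8, Ndufa4l2 and Abcc9). The sum of the 8 markers was 396.1 to 512.6 CPM in depleted RPF and 549.6 to 692.5 CPM in steady-state RPF. Rgs5 was at 0.172, 0.162 and 0 CPM in depleted RPF and 0.149, 0.197 and 0.0662 CPM in steady-state RPF, near 0 in both. Megakaryocyte and platelet markers summed to 39.2 to 47.8 CPM in depleted RPF and 21.6 to 29.8 CPM in steady-state RPF, with 1 of 5 tested genes higher, which was Pf4. Pf4, a platelet chemokine, was at 38.9 ± 7.79 CPM in depleted RPF and 12.8 ± 0.84 CPM in steady-state RPF, and made the higher sum. The other platelet chemokine gene of the list, Ppbp, was lower in every depleted library, at 1.01 ± 0.529 CPM in depleted RPF and 5.16 ± 1.52 CPM in steady-state RPF, and did not pass (edgeR adjusted p = 0.128). Itga2b averaged 3.32 CPM in depleted and 3.84 CPM in steady-state RPF and Tubb1 0.65 CPM in depleted and 1.86 CPM in steady-state RPF, both with overlap, and the median log2 fold change of the 5 was -0.21. Gp1bb reached 0.0574 CPM in 1 depleted library and was at 0 in all others. Striated muscle genes summed to at most 6.25 CPM in any library, with Myl2, Myl7 and Myh6 at 0 in depleted RPF. Endothelial markers summed to 19.1 to 28.5 CPM in depleted RPF and 42.1 to 71.7 CPM in steady-state RPF, with 0 of 7 called and Emcn at 0 after depletion. Neutrophil genes summed to 2.37 to 48.0 CPM in depleted RPF and 47.3 to 350.2 CPM in steady-state RPF, with 0 of 7 called. B and plasma cell genes summed to 18.9 to 42.8 CPM in depleted RPF and 102 to 232.4 CPM in steady-state RPF, and 2 of 5 tested fell (Ighm and Jchain). The part of pericyte RNA, and of platelet and other blood cell RNA, in the rise of the contractile genes was not tested.

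The genes most like Acta2 over the 9 libraries were found by the root mean square difference of log2 CPM, centred per gene, among 8749 other genes with a mean of at least 10 CPM. The first 6 were Sod2 (0.595), Sdc4 (0.633), Srm (0.654), Slc7a1 (0.662), Wdr4 (0.685) and Rin1 (0.689). They encode a mitochondrial superoxide dismutase, a cell surface proteoglycan, spermidine synthase, an amino acid transporter, a tRNA methyltransferase subunit and a Ras effector. Srf came at rank 13 (0.739). Of the contractile genes, Tpm2 came first at rank 29 (0.853), Myl9 at rank 183 and Tpm1 at rank 628, while Tagln stood at rank 3173. Acta2 was chosen as the gene with the largest change, so these distances are a description.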

How the data were processed

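PolyA RNA of 9 libraries, each from 2 pooled mice, was analysed. The values the authors deposited are raw read counts for each Ensembl gene and entered the fit unchanged. Tools named in the submitters' processing notes are STAR 2.5.3a, HTSeq 0.6.1p1, Bowtie2 2.2.8 and cutadapt 1.10, with mm10 as the build. Neither the strand setting nor the annotation release is known from the sources used here. The deposited table's 24 other per-sample columns were not used, and its median transcript lengths served only to express levels per kilobase.

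Of 27370 genes, 881 had no count and 15103 passed filterByExpr. One model with a term per group was fitted over all 9 libraries in R 4.3.3 with edgeR 4.0.16 (TMM scaling, robust quasi-likelihood fit, 6 residual degrees of freedom), and genes were called at a two-sided Benjamini-Hochberg adjusted p under 0.05 over all tested genes. No test was adjusted over the members alone. For a group with 0 counts, a floor of 3 counts in all gives the lower bound of the fold. Intervals between libraries reflect their spread, and low counts such as those of Cnn1 and Actg2 limit precision. The model was tested on simulated counts. A gene that did not pass is not thereby shown to be alike in both groups.

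The members and gene lists were chosen with earlier results of these data known. 1 gene of the list of other smooth muscle genes is not reported here and was left out of its counts. All 10 members are named. Further named genes are those with the smallest p in each list, those needed to say which way a list moved, and the 6 genes most like Acta2 (log2 of CPM plus 0.1). Alternatives used limma 3.58.1 and DESeq2 1.42.0 among others. Figures were drawn with matplotlib 3.10.9.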

Additional observations from a re-analysis of the deposited data

How the results depend on the processing

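Each of the 10 genes was recomputed under 10 other settings (RLE, upper quartile and library-total scaling, no low-count filter, at least 1 CPM throughout a group, DESeq2, limma-voom, no robust prior, the compared groups alone, and Y-linked reads as a term) and with each of the 9 libraries left out. Cnn1 did not pass the 1 CPM filter. Scaling mattered most against FRC: on library totals the median log2 fold change of all genes was 0.55 for steady-state RPF against FRC, 0.34 for depleted RPF against FRC and -0.26 for depleted against steady-state RPF, in place of -0.02, -0.06 and -0.09. On that scale the mean levels of Mylk and Smtn were 314.2 and 383 CPM in steady-state RPF and 101.9 and 57.9 CPM in FRC, and that of Tpm1 was 868.8 CPM in steady-state RPF.

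In depleted against steady-state RPF, Smtn changed sign with upper quartile scaling (-0.045), library totals (-0.12), without depleted replicate 2 (-0.049) and without steady-state RPF replicate 2 (-0.079), and ran from -0.079 to 0.17 with 1 library left out. In steady-state RPF against FRC, Myl9 changed sign with library totals (0.34) and without FRC replicate 2 (0.17), and ran from -0.44 to 0.17 with 1 library left out. Neither gene was called in these comparisons under any setting. Myh11 in steady-state RPF against FRC passed with no filter (adjusted p = 0.0416), the 1 CPM filter (0.0396), DESeq2 (0.00978), limma-voom (0.0313), no robust prior (0.0485) and the compared groups alone (0.0458). Myl9 in depleted RPF against FRC did not pass without the filter (0.0503) or with the term for Y-linked reads (0.0773). The cause of these changes was not tested.

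With 1 library left out, between 2144 and 3290 genes were called in depleted against steady-state RPF, 2838 to 3706 in steady-state RPF against FRC and 4292 to 5001 in depleted RPF against FRC. The contractile genes called then numbered 4 to 6, 5 to 7 and 7 to 8. DESeq2 called 4312, 4972 and 6457 genes in the 3 comparisons, in place of 3176, 3908 and 5400, and the compared groups alone gave 3780, 3666 and 4712.

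No paired analysis was possible because the labels give no replicate numbers, and the sources used here do not say which FRC and steady-state RPF libraries share mice. Replicate 1 of each of these groups had at most 1 count from Ddx3y, Eif2s3y, Kdm5d and Uty together. This sets both apart from the other libraries but leaves the remaining 4 unmatched. Genes of low count such as Cnn1 and Actg2 limit what 3 libraries per group can show.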
